A study of Mus musculus with 6 samples.

Results

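The 9 genes described here carry out the successive steps of monoamine handling: synthesis (Th, Ddc, Gch1), loading into synaptic vesicles (Slc18a2), reuptake across the plasma membrane (Slc6a3, Slc6a2, Slc6a4) and breakdown (Maoa, Maob). They were taken by symbol from a table of 33274 gene rows, and each of the 9 symbols had a single row. Poly(A) RNA of cerebral cortex was sequenced from 6 wild-type females of the outbred ICR stock, sampled when 6 weeks old. The methylphenidate lineage (n = 3) consisted of grandoffspring of males dosed subcutaneously with methylphenidate at 15 mg/kg for 21 days, and the saline lineage (n = 3) of grandoffspring of males given saline at 10 mL/kg in the same way. An age of 6 weeks is recorded for the males given methylphenidate or saline. The treated males and their sons were both mated with undosed females, so no animal sequenced had itself received the drug. The labels do not say which F2 mice shared a sire or a litter, so the spread between libraries may hold family effects or be technical. The lineages were compared to ask whether the treatment of the grandsire was followed by a difference in cortical expression.

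Dopamine, noradrenaline and serotonin are made in neurons whose cell bodies lie in the midbrain and brainstem, and whose axons reach the cortex. Tyrosine hydroxylase (Th) commits tyrosine to dopamine and noradrenaline, aromatic L-amino acid decarboxylase (Ddc) completes dopamine and serotonin, and GTP cyclohydrolase (Gch1) starts the synthesis of tetrahydrobiopterin, the cofactor of the hydroxylases. Vesicles are filled by the vesicular monoamine transporter VMAT2 (Slc18a2). Released transmitter is taken back by the dopamine, noradrenaline and serotonin transporters (Slc6a3, Slc6a2 and Slc6a4), of which methylphenidate blocks the dopamine and noradrenaline carriers. The monoamine oxidases A and B (Maoa, Maob) of the outer mitochondrial membrane oxidise monoamines in neurons, glia and other cells.

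Total counts were 23896752 to 28120640 per library, and the 3 counts that a count of 0 allows were 0.105 to 0.124 CPM (counts scaled to the size of the library), which covers counting error only. The tissue label was met by markers of cortical excitatory neurons, whose 8 listed genes summed to 1490 to 1750 CPM in the methylphenidate lineage and 1580 to 1700 CPM in the saline lineage. Libraries differed in markers of neighbouring tissue, and part of that difference ran with lineage. The 15 striatal projection neuron genes summed to 449 to 942 CPM in the methylphenidate lineage and 375 to 472 CPM in the saline lineage, and the 16 measured genes of hypothalamus and basal forebrain to 12.8 to 39.0 CPM in the methylphenidate lineage and 4.61 to 6.21 CPM in the saline lineage. The 8 choroid plexus genes summed to 25.7 to 514 CPM in the methylphenidate lineage and 45.8 to 678 CPM in the saline lineage. The median log2 fold change (methylphenidate over saline) was 1.07 for the striatal list, with 12 of 14 tested genes above 0. It was 2.06 for hypothalamus and basal forebrain (8 of 8 above 0), -0.61 for choroid plexus and -0.28 for cortical excitatory neurons (7 of 8 below 0). No gene of these lists passed an edgeR adjusted p of 0.05. The part of tissue content in the lineage comparisons was not tested. In tissue homogenates of this kind, fewer cells of a type and less RNA per cell cannot be told apart.

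The 9 genes were grouped into 3 bands at the largest steps in mean level. These steps were 5.53-fold from Ddc to Maob and 19.6-fold from Slc6a4 to Gch1, against at most 2.13-fold between other neighbours. Levels of different genes were compared as CPM per kb of exon. The band of breakdown held Maoa at 7.84 ± 0.96 CPM per kb and Maob at 6.62 ± 0.94 CPM per kb (SD, n = 6). The middle band held Ddc at 1.20 ± 0.25, Slc18a2 at 0.588 ± 0.207, Th at 0.508 ± 0.264 and Gch1 at 0.238 ± 0.067 CPM per kb (SD, n = 6). The reuptake transporters formed the lowest band, with means of 0.0122 CPM per kb for Slc6a4, 0.00997 CPM per kb for Slc6a3 and 0.00546 CPM per kb for Slc6a2. The lowest library of Maob, 5.31 CPM per kb, lay above the highest of Ddc, 1.66 CPM per kb. The lowest of Gch1, 0.152 CPM per kb, likewise lay above every transporter value, the highest of which was 0.0598 CPM per kb. Within the middle band Ddc exceeded Slc18a2 in all 6 libraries without overlap of their ranges, while Slc18a2 and Th overlapped, as did Th and Gch1. Over 17992 protein-coding genes with an exon length, the level of Maoa lay above 70.1% of genes, that of Ddc above 35.6%, that of Gch1 above 21.1% and that of Slc6a2 above 1.46%. Lengths came from an annotation of an earlier genome build, and per kb of coding sequence the middle band was ordered otherwise, with Gch1 (2.06 CPM per kb) and Slc18a2 (1.98 CPM per kb) ahead of Th (0.803 CPM per kb).

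**Figure D1:**
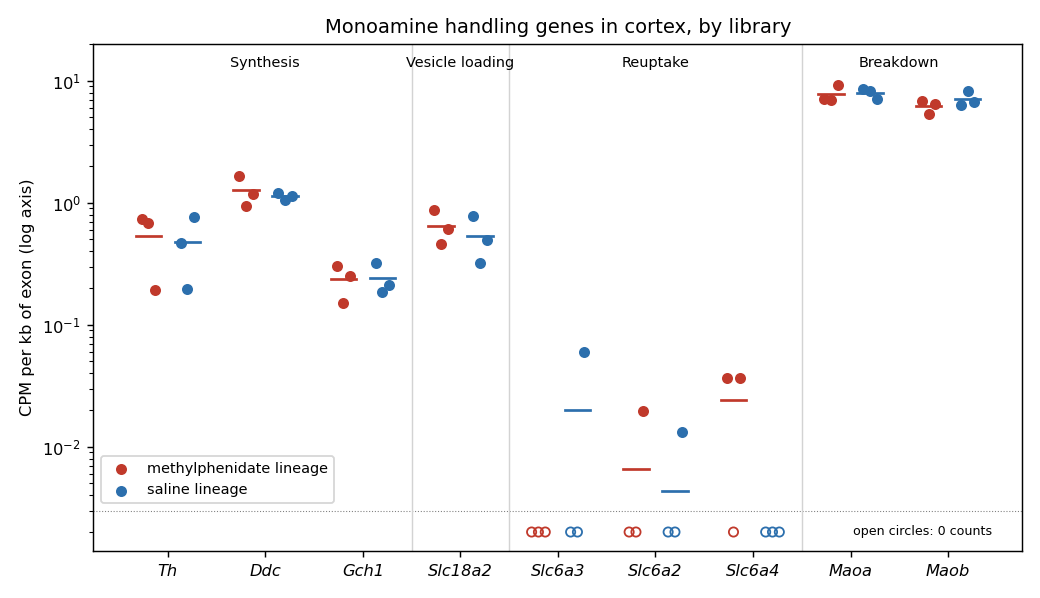
Level of each of the 9 genes in CPM per kb of exon (vertical log axis), by step of monoamine handling. Filled points are libraries, short lines are means of 3 libraries, and open circles below the dotted line are libraries with 0 counts, drawn at 0.002. Maoa and Maob lie between 5.31 and 9.21, the synthesis and vesicle genes between 0.152 and 1.66, and no transporter library exceeds 0.0598.

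Among the synthesis genes, Th was low and differed widely between animals of the same lineage. Th (ENSMUSG00000000214; chr7:142892752-142931128, minus strand, GRCm38) had 42, 46 and 11 counts in methylphenidate replicates 1 to 3 and 29, 12 and 44 counts in saline replicates 1 to 3, or 1.74, 1.62 and 0.453 CPM against 1.10, 0.469 and 1.82 CPM. Methylphenidate replicate 3 and saline replicate 2 were the low libraries, and the groups overlapped almost fully. The highest library had 4.02 times the CPM of the lowest, and the coefficient of variation over 6 libraries was 52.0%, where counting error alone gives 18.1% at this depth. The log2 fold change (methylphenidate over saline) was 0.17 (SE 0.59, 95% interval -1.14 to 1.48, edgeR adjusted p = 0.969), so that folds from 0.455 to 2.80 lay within the interval.

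Ddc and Gch1 were steadier than Th. Ddc (ENSMUSG00000020182; chr11:11814101-11898144, minus strand, GRCm38) had 179, 120 and 128 counts in the methylphenidate lineage and 142, 120 and 122 counts in the saline lineage. A single library, methylphenidate replicate 1 at 7.41 CPM, stood above the others, which lay between 4.22 and 5.41 CPM. The log2 fold change of Ddc was 0.16 (SE 0.23, edgeR adjusted p = 0.923). Gch1 (ENSMUSG00000037580; chr14:47153895-47189413, minus strand, GRCm38) had 46, 27 and 38 counts in the methylphenidate lineage and 53, 30 and 32 counts in the saline lineage. Its groups overlapped, and its log2 fold change was -0.04 (SE 0.38, edgeR adjusted p = 0.992). Ddc acts in the same pathway after Th, yet its ratio to Th per kb ran over 2.26, 1.38 and 6.17 in the methylphenidate libraries and 2.59, 5.30 and 1.47 in the saline libraries. Transcripts of the 2 enzymes therefore did not keep a fixed proportion in these cortices.

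Slc18a2, the vesicular transporter gene, was present in every library. Slc18a2 (ENSMUSG00000025094; chr19:59260896-59296012, plus strand, GRCm38) had 110, 68 and 77 counts in the methylphenidate lineage and 107, 43 and 62 counts in the saline lineage, or 4.56, 2.39 and 3.17 CPM against 4.07, 1.68 and 2.56 CPM. Replicate 1 was the highest library in each lineage, and the groups overlapped. The log2 fold change was 0.28 (SE 0.36, 95% interval -0.53 to 1.09, edgeR adjusted p = 0.906). In the GENCODE annotation of GRCm38 the antisense gene Gm29261 overlaps Slc18a2. Gm29261 had 4 counts in methylphenidate replicate 1 and 0 in the other 5 libraries. Slc18a1, the vesicular transporter of endocrine cells, had 0, 5 and 6 counts in the methylphenidate lineage and 4, 0 and 11 counts in the saline lineage.

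The promoter windows of Th and Slc18a2 are shown with that of Slc6a3, because the first 2 share a motif that the members were not chosen for. Each window is the RefSeq promoter sequence of GRCm38.p6 from 250 bases before to 50 bases after the annotated start, written 5′ to 3′ on the strand of the gene, and capitals mark the cyclic AMP response element TGACGTCA. The Th window is chr7:142899946-142900245 on the minus strand, the Slc18a2 window chr19:59260628-59260927 on the plus strand and the Slc6a3 window chr13:73536497-73536796 on the plus strand.
Th: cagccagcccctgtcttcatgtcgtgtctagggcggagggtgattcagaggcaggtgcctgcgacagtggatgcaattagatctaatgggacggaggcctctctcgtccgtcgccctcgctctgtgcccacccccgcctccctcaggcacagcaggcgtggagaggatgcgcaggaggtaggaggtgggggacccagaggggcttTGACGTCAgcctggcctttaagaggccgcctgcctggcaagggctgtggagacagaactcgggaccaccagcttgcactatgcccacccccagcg
Slc18a2: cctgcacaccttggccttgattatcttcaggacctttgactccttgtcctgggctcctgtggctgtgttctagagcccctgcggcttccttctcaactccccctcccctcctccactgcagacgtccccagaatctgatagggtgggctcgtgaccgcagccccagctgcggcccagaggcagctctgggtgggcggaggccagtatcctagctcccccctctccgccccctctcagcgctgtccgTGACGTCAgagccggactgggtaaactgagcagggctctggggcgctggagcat
Slc6a3: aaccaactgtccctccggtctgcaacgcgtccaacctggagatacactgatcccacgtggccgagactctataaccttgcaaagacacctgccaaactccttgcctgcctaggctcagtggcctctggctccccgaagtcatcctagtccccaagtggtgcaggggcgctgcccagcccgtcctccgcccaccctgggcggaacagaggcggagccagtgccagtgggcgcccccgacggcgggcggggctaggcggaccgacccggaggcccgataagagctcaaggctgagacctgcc

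The element began 45 bases before the RefSeq start of Th and 4 bases before that of Slc18a2. RefSeq starts differ from the ends of the GENCODE spans given above, and the Th window lies within the GENCODE span of Th. Of the 9 genes, 7 had a window in the RefSeq table, namely all but Slc6a2 and Maob, and Ddc had 2. TGACGTCA, which reads the same on both strands, was found in the windows of Th and Slc18a2 and in none of the other 6, and in 1.79% of 32851 windows of the same length genome-wide. Its half-site TGACG, searched on both strands and contained in the full element, was found in the windows of Th, Slc18a2, Gch1, Maoa and Slc6a4 and in 20.8% of all windows. The GC box GGGCGG, on either strand, was found in the windows of every one of the 7 genes except Ddc and in 35.7% of all windows. The letters TATAAA, on either strand, were found in the Gch1 window and in 1 of the 2 Ddc windows, and in 13.6% of all windows. The motifs were picked after the windows had been read. Th and Slc18a2 did not follow each other over the libraries, since Slc18a2 per kb was between 0.638 and 3.17 times Th.

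The 3 reuptake transporters were at the limit of detection. Slc6a3 (ENSMUSG00000021609; chr13:73536747-73578672, plus strand, GRCm38) had 0 counts in all 3 methylphenidate libraries and 0, 0 and 5 counts in saline replicates 1 to 3. Slc6a2 (ENSMUSG00000055368; chr8:92960079-93001667, plus strand, GRCm38) had 0, 0 and 3 counts in the methylphenidate lineage and 0, 0 and 2 counts in the saline lineage. Slc6a4 (ENSMUSG00000020838; chr11:76998603-77032340, plus strand, GRCm38) had 4, 0 and 4 counts in the methylphenidate lineage and 0 counts in all 3 saline libraries. Summed over the 3 genes there were 4, 0 and 7 counts in the methylphenidate lineage and 0, 0 and 7 counts in the saline lineage, so that 3 of the 6 libraries held no count of any of them. Of 17992 protein-coding genes, 8.7% had at most 5 counts in every library, as these 3 did. None of the 3 passed the filter on low counts. In the edgeR fit with no filter none passed the threshold (edgeR adjusted p = 0.739 for Slc6a3 and Slc6a4 and 0.974 for Slc6a2), and no fold is given for counts this low. Whether the lineages differ in these 3 genes cannot be told from so few counts.

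Other carriers of monoamines were more abundant than the high-affinity transporters. Slc29a4, which encodes the plasma membrane monoamine transporter, lay at 3.38 CPM per kb (range over libraries 2.73 to 4.18), and Slc22a3, which encodes the organic cation transporter 3, at 0.635 CPM per kb (0.405 to 1.01). Both exceeded all 3 Slc6a genes in every library. Slc29a4 had 289, 274 and 261 counts in the methylphenidate lineage and 205, 231 and 214 counts in the saline lineage, or 12.0, 9.62 and 10.7 CPM against 7.80, 9.02 and 8.85 CPM. Its groups did not overlap, as was the case in 13.5% of the 18327 genes tested, and its log2 fold change of 0.33 (SE 0.15) did not pass (edgeR adjusted p = 0.660). For Slc22a3 the log2 fold change was 0.52 (SE 0.31, edgeR adjusted p = 0.762).

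Maoa and Maob, which lie 21463 bases apart and point towards each other on the X chromosome, were the steadiest members. Maoa (ENSMUSG00000025037; chrX:16619698-16687818, plus strand, GRCm38) had 709, 828 and 932 counts in the methylphenidate lineage and 934, 879 and 707 counts in the saline lineage. Maob (ENSMUSG00000040147; chrX:16709282-16817366, minus strand, GRCm38) had 455, 422 and 438 counts in the methylphenidate lineage and 461, 588 and 448 counts in the saline lineage. The highest library had 1.32 times the CPM of the lowest for Maoa and 1.55 times for Maob, and saline replicate 2 was the highest for Maob. The log2 fold change was -0.03 for Maoa (SE 0.13, 95% interval -0.32 to 0.25, edgeR adjusted p = 0.972) and -0.19 for Maob (SE 0.14, 95% interval -0.50 to 0.12, edgeR adjusted p = 0.809). A lineage difference of Maoa beyond a fold of 0.801 to 1.19 therefore lay outside its interval. The ratio of Maoa to Maob per kb was 1.04, 1.31 and 1.42 in the methylphenidate libraries and 1.36, 1.00 and 1.06 in the saline libraries, and did not differ beyond this spread (exact permutation test, two-sided p = 0.6, where 0.1 is the smallest p that 3 against 3 allows). Per kb of coding sequence the ratio was 1.48 to 2.10.

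Monoamine oxidases are also expressed by astrocytes and by cells of blood vessels. The 9 astrocyte markers summed to 4980 to 5810 CPM in the methylphenidate lineage and 4970 to 5650 CPM in the saline lineage, and their median log2 fold change was 0.07. The 10 endothelial and mural markers summed to 416 to 465 CPM in the methylphenidate lineage and 444 to 476 CPM in the saline lineage, and their median was -0.06. No gene of either list passed the threshold over all genes tested.

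The other breakdown enzymes spanned 0.777 CPM per kb for Rnls, the renalase gene, to 76.5 CPM per kb for Akr1a1, an aldehyde reductase. Aldh2, a mitochondrial aldehyde dehydrogenase, lay at 14.5 CPM per kb and Hnmt, the histamine methyltransferase, at 9.14 CPM per kb. Of the 13 tested genes of this list 0 passed the threshold, with 5 above 0 and 8 below, and the median log2 fold change was -0.03. For Aldh2 the log2 fold change was -0.10 (SE 0.07, edgeR adjusted p = 0.780).

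The tetrahydrobiopterin route was uneven in level. Qdpr, which recycles the cofactor, lay at 82.2 CPM per kb (68.8 to 107.0), and Spr and Pts, which complete its synthesis after Gch1, lay at 6.00 and 3.28 CPM per kb, against 0.238 CPM per kb for Gch1. Gchfr, the feedback regulator of the Gch1 enzyme, had 15, 2 and 3 counts in the methylphenidate lineage and 16, 6 and 7 counts in the saline lineage, so that replicate 1 was its highest library in both. Of 7 tested genes 0 passed, with 6 above 0 and 1 below and a median log2 fold change of 0.19. The log2 fold change was 0.19 for Spr (SE 0.10, edgeR adjusted p = 0.704) and, for the recycling dehydratase Pcbd2, 0.27 (SE 0.21, edgeR adjusted p = 0.819).

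The other enzymes of committed synthesis were low, with means of 0.0347 to 0.552 CPM per kb. Tph2, the tryptophan hydroxylase of serotonin neurons, had 54, 40 and 49 counts in the methylphenidate lineage and 31, 31 and 36 counts in the saline lineage, or 0.552 CPM per kb over all libraries, a level close to that of Th. Its groups overlapped in CPM, and its log2 fold change was 0.54 (SE 0.32, edgeR adjusted p = 0.757). Dbh, which turns dopamine into noradrenaline, had 4, 10 and 6 counts in the methylphenidate lineage and 8, 4 and 2 counts in the saline lineage, below the filter. Hdc, the histidine decarboxylase of histamine neurons and mast cells, had 16, 24 and 42 counts in the methylphenidate lineage and 11, 12 and 19 counts in the saline lineage (log2 fold change 0.95, SE 0.50, edgeR adjusted p = 0.724). Of the 3 tested genes of this list 0 passed, all 3 lay above 0, and the median log2 fold change was 0.73.

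**Figure D2:**
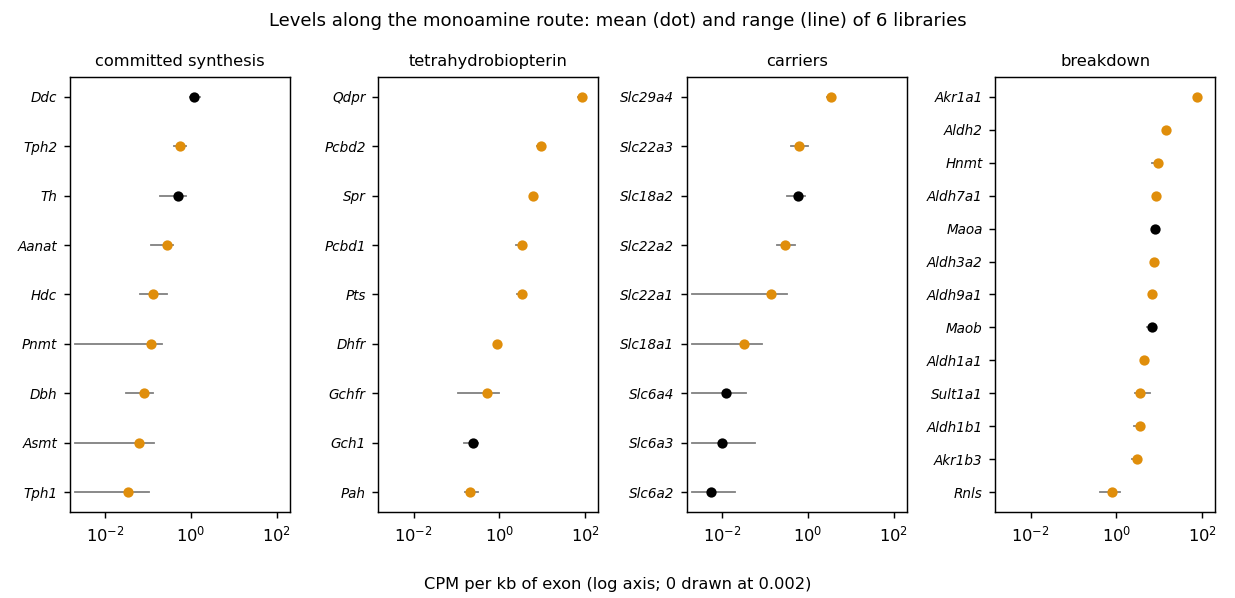
Level of the 9 genes (black) and of other listed genes of the route (orange), in CPM per kb of exon on a horizontal log axis, in 4 panels by step. Dots are means and lines are ranges over 6 libraries, and a value of 0 is drawn at 0.002. The committed synthesis enzymes do not exceed the 1.66 of Ddc, while Qdpr, Akr1a1 and Aldh2 have means of 82.2, 76.5 and 14.5.

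Genes listed as marks of the monoamine neurons themselves ranged from 0 to 1756 counts a library. Among regulators of dopamine neuron identity, Pitx3 had 5, 0 and 8 counts in the methylphenidate lineage and 0 counts in the saline libraries, and En1 had 0, 5 and 0 counts in the methylphenidate lineage and 0 counts in the saline libraries. Foxa1 and Foxa2 were not analysed here, for lack of a row. Lmx1a had at most 13 counts and Lmx1b, which is in the serotonin list too, at most 18 counts in any library, while En2 had 21 to 22 counts in the methylphenidate lineage and 18 to 26 counts in the saline lineage. Aldh1a1, a retinaldehyde dehydrogenase of a subset of dopamine neurons that is also found in other cells, had 489 to 591 counts in the methylphenidate lineage and 461 to 680 counts in the saline lineage. Nr4a2, which is also a gene of deep-layer cortical and claustral neurons, had 1035 to 1756 counts in the methylphenidate lineage and 933 to 1506 counts in the saline lineage. Of the noradrenaline list, Phox2a had 0, 4 and 0 counts in the methylphenidate lineage and 1, 0 and 0 counts in the saline lineage, Tlx3 had at most 3 counts in any library, and Hand1 and Hand2 had no row. Summed with Dbh, the measured noradrenaline genes reached 0.166 to 0.597 CPM in the methylphenidate lineage and 0.0827 to 0.343 CPM in the saline lineage. Of the serotonin list, Gata3 had at most 2 counts in any library and Fev had no row. Gata2 had 103 to 123 counts in the methylphenidate lineage and 115 to 157 counts in the saline lineage, and the 5 measured genes, Tph2 among them, summed to 8.92 to 12.2 CPM in the methylphenidate lineage and 9.06 to 9.67 CPM in the saline lineage. None of the tested genes in these lists passed the threshold.

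None of the 6 tested members passed the threshold between the lineages, where 0.0273% of all 18327 genes tested passed the threshold. None of the 6 reached an unadjusted p of 0.05 in edgeR, as 7.51% of all genes did, and none was called by DESeq2 or limma-voom. Their median log2 fold change was 0.06, with 3 above 0 and 3 below, against a median of 0.001 over all genes tested. The groups overlapped in all 6, while they did not overlap in 13.5% of genes. The standard errors were smallest for the genes of most counts, from 0.13 for Maoa to 0.59 for Th, where the median over all genes was 0.15. Directions near 0 depended on single libraries. Without methylphenidate replicate 1 the log2 fold change of Ddc was -0.09 and that of Th -0.11, and without saline replicate 2 that of Th was -0.20. That of Slc18a2 was -0.0011 without methylphenidate replicate 1 and 0.66 without saline replicate 1. Kinase, phosphatase, 14-3-3 and co-chaperone genes listed as regulators of Th and Ddc had 0 of 8 tested members past the threshold, with a median log2 fold change of 0.02. The smallest p among them was that of Ppp2ca, a phosphatase subunit (log2 fold change -0.09, SE 0.06, edgeR adjusted p = 0.769), followed by Dnajc12, a co-chaperone of the aromatic amino acid hydroxylases, at 0.17 (SE 0.15, edgeR adjusted p = 0.859).

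**Figure D3:**
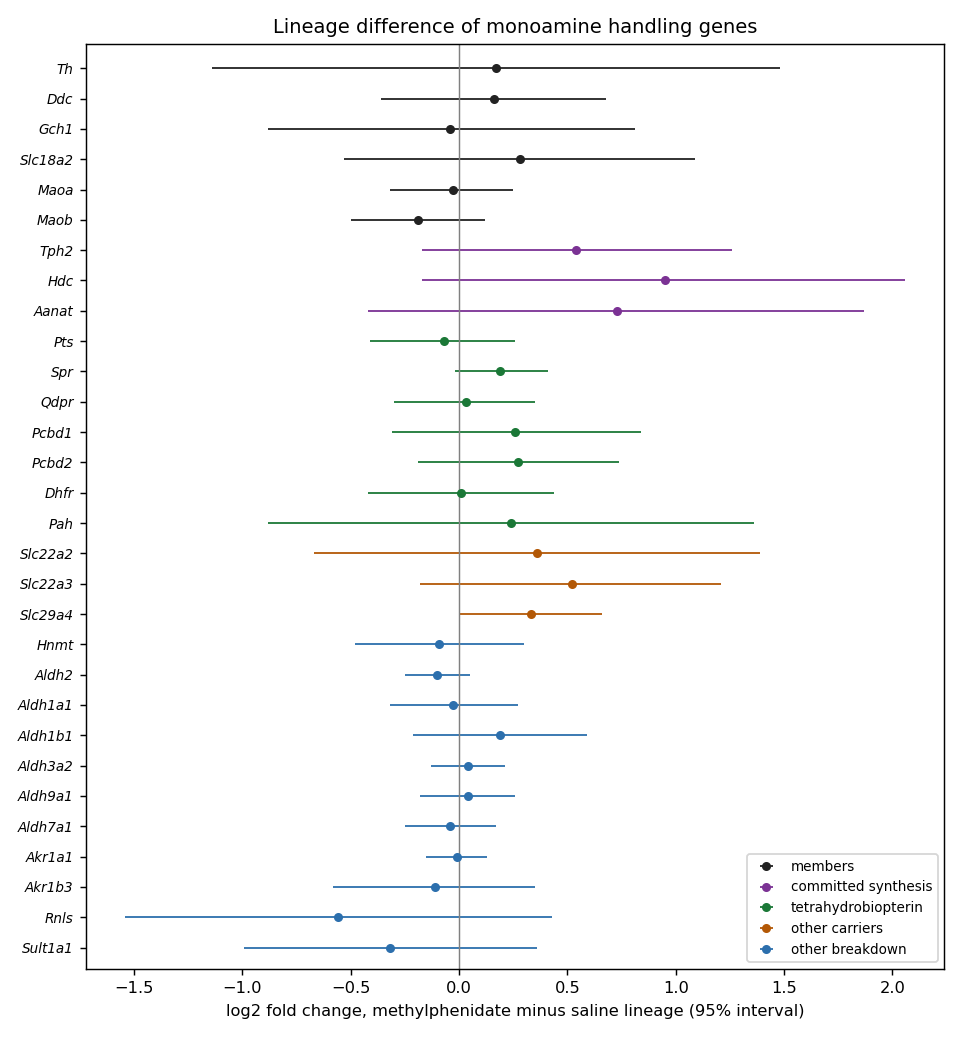
Log2 fold change, methylphenidate minus saline lineage, of the 6 tested members (black) and of tested genes of the route lists (coloured by list), with 95% intervals from the edgeR fit over all genes. The members lie between -0.19 and 0.28, with the widest interval for Th, -1.14 to 1.48.

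Ddc, Slc18a2 and Gch1 shared their highest libraries. In each of these 3 genes, methylphenidate replicate 1 and saline replicate 1 were the 2 highest of the 6 libraries, at 7.41 and 5.41 CPM for Ddc, 4.56 and 4.07 CPM for Slc18a2 and 1.90 and 2.02 CPM for Gch1. That pair led in 3 of the 6 tested members and in 5.29% of all genes tested, a pattern looked for after the values were seen. Th, Maoa and Maob had other leading libraries. The labels give no link between libraries of the same number. Striatal markers summed to 739 CPM in methylphenidate replicate 1 and 472 CPM in saline replicate 1, the highest saline value, but to 942 CPM in methylphenidate replicate 3. Choroid plexus markers summed to 514 CPM in methylphenidate replicate 1 and 45.8 CPM in saline replicate 1. Oligodendrocyte markers summed to 7210 CPM in methylphenidate replicate 1 and 7270 CPM in saline replicate 1, and to 5280 to 6900 CPM elsewhere. The same pair led in the sum of astrocyte markers (5810 and 5650 CPM, elsewhere 4970 to 5420 CPM). Slc1a2 alone made up 3720 and 3580 CPM of these sums. Averaged over the astrocyte genes as log2 CPM minus the mean of each gene, the pair did not lead. Methylphenidate replicates 1 and 3 both stood at 0.10 and saline replicate 1 at 0.07. In the sum of endothelial and mural markers the replicate 1 pair led as well (465 and 476 CPM, elsewhere 416 to 461 CPM). Its averages over those genes were 0.08 and 0.04, against 0.03 in saline replicate 2. Most single genes of both lists had other leading pairs. Markers of cortical excitatory neurons, interneurons and microglia had other leading libraries. The part of neighbouring tissue or of these cell types in these values was not tested.

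**Figure D4:**
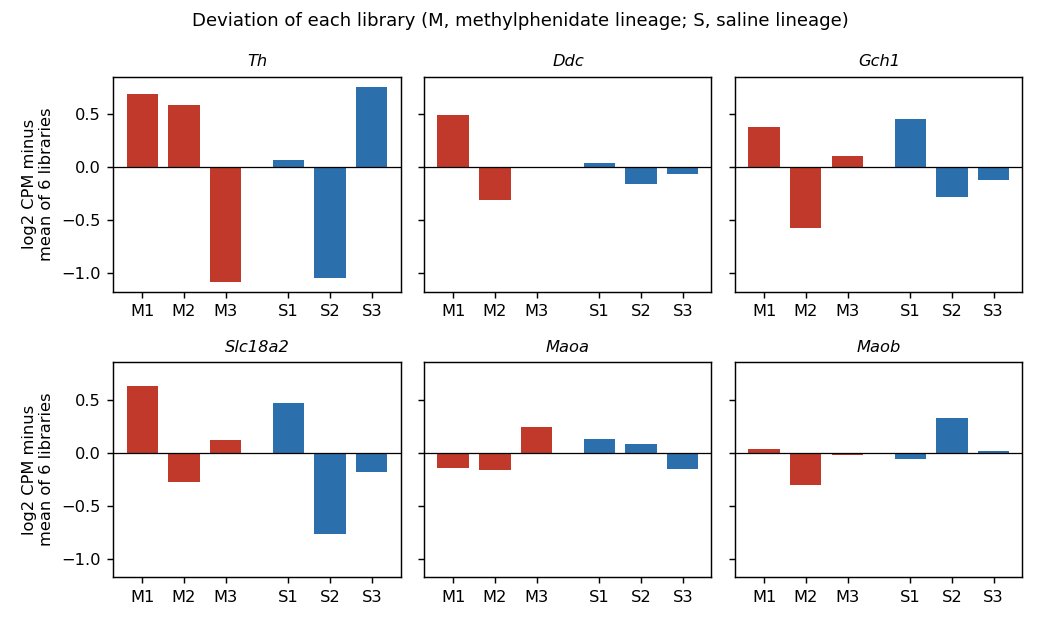
Log2 CPM of the 6 tested members in each library, minus the mean of the 6 libraries (vertical axis, shared by the panels). M1 to M3 (red) are methylphenidate and S1 to S3 (blue) saline replicates. Th deviates by -1.08 in M3 and -1.04 in S2, while Slc18a2 and Gch1 are highest in M1 and S1.

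The genes whose deviations over the 6 libraries came nearest to a member were found among 15820 genes of at least 1 CPM, by the root mean square difference of centred log2 CPM. For Th these were Pmel (0.199) and Got2-ps1 (0.284), where the deviations of Th itself had a root mean square of 0.78. Pmel had 54, 80 and 17 counts in the methylphenidate lineage and 48, 21 and 52 counts in the saline lineage, and was low in the same 2 libraries as Th. For Ddc they were Pde7b (0.053) and Tmem88b (0.062), and for Slc18a2 Gm36445 (0.161) and Gm15421 (0.171). With 6 libraries and so many genes, near matches arise for any profile, and nothing further was drawn from them.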

How the data were processed

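The authors deposited raw counts, whole numbers without normalization, in a single table keyed by Ensembl identifier with gene symbols beside them, per the file headers. The tools StringTie 2.2.1, HISAT2 2.2.1, fastp 0.23.4 and bcl2fastq 2.19 and the build GRCm39 are listed, per the submitters' processing notes. Which annotation was used, how counts were derived from StringTie and whether strand was used is stated in no source used here, so reads of overlapping antisense genes cannot be told apart.

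The lineages were compared with edgeR 4.0.16 in R 4.3.3 (filterByExpr, TMM, quasi-likelihood test, group as the only term, two-sided) over 18327 genes, with Benjamini-Hochberg adjustment and a threshold of 0.05. Standard errors come from the log2 fold change and the F statistic, and 95% intervals use the fitted degrees of freedom. Levels between genes are TMM-scaled CPM per kb of merged exons in GENCODE M21 (GRCm38), matched by Ensembl identifier, and coordinates are those of that annotation. Promoters are from RefSeq (GRCm38.p6).

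The members, lists and tests were chosen with earlier results of these data known. All 9 members were named, and of each route list, among the genes reported here, the tested genes of smallest p and of highest level. For the regulators of Th and Ddc, only those of smallest p were named. Marker lists are given by sums and counts, and other genes were named for their step or as markers after their values were seen. Results of some listed genes are not reported here. Alternatives were other scalings and filters, a replicate block, DESeq2 1.42.0, limma-voom (limma 3.58.1), leaving out each library, coding length, and library sizes without mitochondrially encoded genes. The fit was tested on simulated data.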

Additional observations from a re-analysis of the deposited data

How the results depend on the processing

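None of the 6 tested members passed the threshold under any of the 84 member and setting pairs tried, and the smallest adjusted p among them was 0.739. Over all genes, 5 passed with edgeR, and 10 with total counts, 3 with no filter on low counts, 151 with DESeq2 and 2 with the replicate block. Same-numbered libraries did not deviate together (correlations of -0.044, 0.091 and -0.024), so the replicate numbers were not taken to pair the samples. Without single libraries the count ran from 2 to 26. The log2 fold changes without single libraries ran from -0.0011 to 0.66 for Slc18a2, -0.20 to 0.69 for Th, -0.09 to 0.33 for Ddc, -0.27 to 0.23 for Gch1, -0.18 to 0.03 for Maoa and -0.27 to -0.07 for Maob, and changed sign in 10 fits, all of values within their standard error of 0. Per kb of coding sequence the levels were 20.7 for Maoa, 11.8 for Maob, 3.71 for Ddc, 2.06 for Gch1, 1.98 for Slc18a2, 0.803 for Th and 0.0186 CPM for Slc6a2, which follows from the shorter lengths. Library sizes without mitochondrially encoded genes moved no level by more than its spread. Depth limits the 3 reuptake transporters, with at most 5 counts in any library.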

Other observations

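Genes of the melatonin branch, which starts from serotonin, were listed with the synthesis enzymes and had few counts. Tph1, the tryptophan hydroxylase of pineal gland and gut, had 6, 18 and 8 counts in the methylphenidate lineage and 2, 0 and 0 counts in the saline lineage. It lay below the filter, and in the edgeR fit with no filter it had an unadjusted p of 0.00894 and an adjusted p of 0.739. Aanat, which acetylates serotonin, had 15, 16 and 13 counts in the methylphenidate lineage and 5, 9 and 12 counts in the saline lineage (log2 fold change 0.73, SE 0.51, edgeR adjusted p = 0.804). Asmt, which completes melatonin, had 0, 4 and 4 counts in the methylphenidate lineage and 0, 0 and 3 counts in the saline lineage. Aanat did not overlap between the lineages in CPM, as was the case in 13.5% of the genes tested. Nor did Tph1, but it was not among the genes tested, so that share does not cover it. Tph1 and Aanat were singled out after their values were seen.

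Genes listed for mast cells and platelets, which carry VMAT2 and are not neurons, had from 0 to 1488 counts a library. The mast cell protease gene Cpa3 had 2, 2 and 1 counts in the methylphenidate lineage and 0 in the saline libraries. Mcpt4, Tpsb2, Cma1, Tpsab1 and Fcer1a, also listed for mast cells, had no row. Pf4, a platelet gene, had 19, 28 and 3 counts in the methylphenidate lineage and 11, 12 and 15 counts in the saline lineage. Of the other platelet genes, Gp1bb had 112 to 223 counts in the methylphenidate lineage and 102 to 140 counts in the saline lineage, and Itga2b had 41 to 60 counts in the methylphenidate lineage and 47 to 72 counts in the saline lineage. The remaining platelet genes were low, with at most 4 counts in any library for Ppbp, 5 for Gp6 and 16 for Gp9. Kit, which mast cells share with some cortical interneurons, had 1108 to 1488 counts in the methylphenidate lineage and 982 to 1203 counts in the saline lineage, and Hdc, the histamine-forming enzyme of mast cells and of hypothalamic neurons, had 16 to 42 counts in the methylphenidate lineage and 11 to 19 counts in the saline lineage. The part of these cells in the Slc18a2 counts was not tested.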
